A study of Homo sapiens with 12 samples.

Results

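The genes described here encode the subunits of the integrins, the heterodimeric cell surface receptors for extracellular matrix, and of the laminins, the heterotrimeric glycoproteins of basement membranes. They were taken by gene symbol from the table of raw counts, which lists 58037 genes, and all 35 listed symbols were found: 17 integrin alpha subunits, 8 integrin beta subunits and 10 laminin chains. RNA was sequenced from DU-145 and LNCaP-AI human prostate cancer cells that stably carry a doxycycline-inducible shRNA against MUC1, the gene of a transmembrane mucin. DU-145 is an androgen-independent line. LNCaP-AI descends from the androgen-dependent LNCaP line through an intermediate line that had been selected in vivo under androgen ablation. Per the study's methods, culture of that intermediate line in charcoal-stripped serum for over 6 months gave LNCaP-AI. For LNCaP-AI the labels and the study's methods name phenol red-free medium with 10% charcoal-stripped serum. For DU-145 they differ, the labels naming that medium and the methods RPMI1640 with 10% fetal bovine serum, and in the latter case medium and line cannot be told apart. The 12 samples form 4 groups of 3 cultures each: DU-145/tet-MUC1shRNA cells with vehicle or with doxycycline (DOX), and LNCaP-AI/tet-MUC1shRNA cells with vehicle or with DOX, where DOX was 500 ng/ml for 7 days. The labels name the vehicle groups shCTL and the DOX groups shMUC1, whereas the study's figure legends describe vehicle or DOX treatment of tet-MUC1shRNA cells. For DU-145 its text also names cells with a control shRNA. The legends are followed here. On that reading no cells with an inducible control shRNA were analysed, so silencing of MUC1 and exposure to DOX cannot be told apart. Each line stands for 1 engineered population.

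An alpha and a beta integrin chain pair in the membrane and link the matrix outside to actin or, for the heterodimer of the ITGA6 and ITGB4 products, to keratin filaments at hemidesmosomes. ITGB1 pairs with many alpha chains, among them the collagen receptors of ITGA1 and ITGA2, the fibronectin receptor of ITGA5 and the laminin receptors of ITGA3, ITGA6 and ITGA7, whereas ITGAV pairs with ITGB1, ITGB3, ITGB5, ITGB6 and ITGB8 in receptors for matrix proteins that hold an RGD motif, and ITGB2 and ITGB7 are best known from leukocytes. A laminin is built from an alpha, a beta and a gamma chain, and in epithelial basement membranes the LAMA3 and LAMB3 chains form part of the laminin that anchors basal prostate epithelium, which prostate carcinomas often lose.

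Total counts ranged from 10423437 to 13544153 in the DU-145 samples and from 16569613 to 26961777 in the LNCaP-AI samples. MUC1 had 74, 60 and 59 counts with vehicle and 3 in each DOX sample of DU-145, and 36, 25 and 52 with vehicle and 8, 6 and 3 with DOX in LNCaP-AI, so it was lower with DOX in every sample. Of the 7 luminal prostate markers, 5 were called lower and 2 higher in DU-145 than in LNCaP-AI with vehicle, beside 35.0% and 30.2% of all genes. KLK3, KLK2 and FOLH1 were at 0 counts in all DU-145 samples, and FOLH1 was at 12428 to 22813 counts in LNCaP-AI. In DU-145 the luminal keratin genes KRT8 (log2 fold change 1.14) and KRT18 (1.12) rose with DOX. Of the 7 luminal markers, 3 of 3 tested rose with DOX in DU-145, beside 26.3% of all genes. In LNCaP-AI 4 of 7 rose with DOX, beside 7.22%. The LNCaP-AI samples divided across treatment: the first principal component, holding 82.5% of their variance, put a first set of vehicle 1 with DOX 2 and 3 apart from a second set of vehicle 2 and 3 with DOX 1, and changes with DOX in that line are therefore also given inside each set. Of the markers of other cell types, 5 of 16 were higher in all samples of the second set and 1 was lower, against 20.4% and 14.8% of all genes tested. The second set had 79 to 145 counts of PF4 and 36 to 72 of PECAM1 against at most 1 of either in the first, while the other 2 endothelial markers overlapped between the sets. Summed CPM was 4.66 to 5.67 in the second set and 0 to 0.06 in the first for megakaryocyte and platelet markers, 1.08 to 1.55 and 0.0486 to 0.30 for leukocyte markers, 19 to 25.4 and 20.1 to 22.9 for fibroblast markers and 5.06 to 9.11 and 5.63 to 8.22 for endothelial markers. Of the 4 leukocyte markers, CD14 divided the samples, with 16 to 39 counts in the second set and 1 to 3 in the first, while CD3E was at 0 counts in every sample, PTPRC at 0 to 2 and LYZ at 0 to 3.

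With vehicle, levels were compared between genes as CPM, the count relative to the library total after TMM scaling, per kilobase of exon, here scaled over all 12 samples. In DU-145 the highest levels were those of ITGB1 at 90.2 ± 5.70 (SD, n = 3) and ITGA3 at 88.3 ± 5.0, whose ranges overlapped, followed by LAMB3 at 68.4 ± 2.74, LAMC1 at 56.3 ± 2.72 and ITGA6 at 35.4 ± 2.88, each with all samples above the next. ITGB5 (18.4), ITGA2 (12.02) and LAMA5 (11.2) came next, ITGA2 overlapping LAMA5, and 17 of the 35 genes had a mean of at least 2. In LNCaP-AI the order opened with LAMC1 at 38.8 ± 0.45, LAMB3 at 27.7 ± 24.1, LAMA3 at 27.2 ± 10.4, ITGB1 at 24.8 ± 4.57 and ITGA6 at 20.1 ± 2.33, and each of these overlapped its neighbour in the order. By mean level the laminin receptor chains ITGB1 and ITGA3 thus came first in DU-145, and LAMC1, a laminin gamma chain, in LNCaP-AI. In LNCaP-AI vehicle 3, however, LAMB3 at 45.4 lay above LAMC1 at 39.2. The members' share of all counts was 0.391% to 0.422% in DU-145 with vehicle and 0.149% to 0.240% in LNCaP-AI with vehicle.

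The lines were compared with vehicle to see which subunits set them apart. In these bulk samples fewer expressing cells and less RNA per cell cannot be told apart. By edgeR's quasi-likelihood test with Benjamini-Hochberg adjustment over all genes, 30.2% of 15628 genes were higher in DU-145 and 35.0% were lower. Of the 26 members with enough counts for the test, 13 were higher in DU-145, 3 were lower and 10 did not pass, with a median log2 difference of 0.83 against -0.06 over all genes. Among the integrin chains, ITGA3 was higher in DU-145 by 4.04 ± 0.45 (log2, SE), ITGB2 by 3.53 ± 0.20 and ITGB1 by 1.90 ± 0.15. ITGB4 (1.12), ITGB5 (0.95), ITGA6 (0.86), ITGA7 (0.81) and ITGAV (0.76) were also higher, as was ITGB3, which had 56, 36 and 62 counts in DU-145 and 0, 3 and 6 in LNCaP-AI. Of the laminin chains, LAMA1, known from early embryonic basement membranes, showed the widest difference in favour of DU-145 at 6.50 ± 0.17, with 951, 754 and 825 counts against 15, 15 and 29. LAMA5 (1.47), LAMB2 (1.31) and LAMC1 (0.57) were higher in DU-145 as well. The 3 genes lower in DU-145 were ITGB8, whose product activates latent TGF-beta (-3.64 ± 0.89), LAMC3 (-3.08 ± 0.27) and LAMA3 (-2.58 ± 0.29). LAMA4 had 6, 211 and 389 counts in LNCaP-AI against 0, 0 and 1 in DU-145, and did not reach the count minimum of this test. Without that minimum, LAMA4 (adjusted p = 0.000232) and ITGB7 (0.0138) passed as lower and ITGAX (0.0111) as higher, with 13.4% of 32369 genes higher and 21.2% lower. ITGA7 lost its call without any of DU-145 vehicle 1, DU-145 vehicle 3, LNCaP-AI vehicle 2 or LNCaP-AI vehicle 3, at adjusted p from 0.059 to 0.102, in DESeq2 (0.087), without a filter (0.151) and with the replicate block (0.0544), and ITGB5 without DU-145 vehicle 1 or 2, at 0.0504 and 0.0546. Without LNCaP-AI vehicle 1, ITGA1 (0.70), LAMA2 (0.94) and LAMB3 (0.69) passed the test as higher in DU-145 and ITGA2B (-0.73) as lower. The vehicle samples of this comparison are also the controls of both DOX comparisons.

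**Figure D1:**
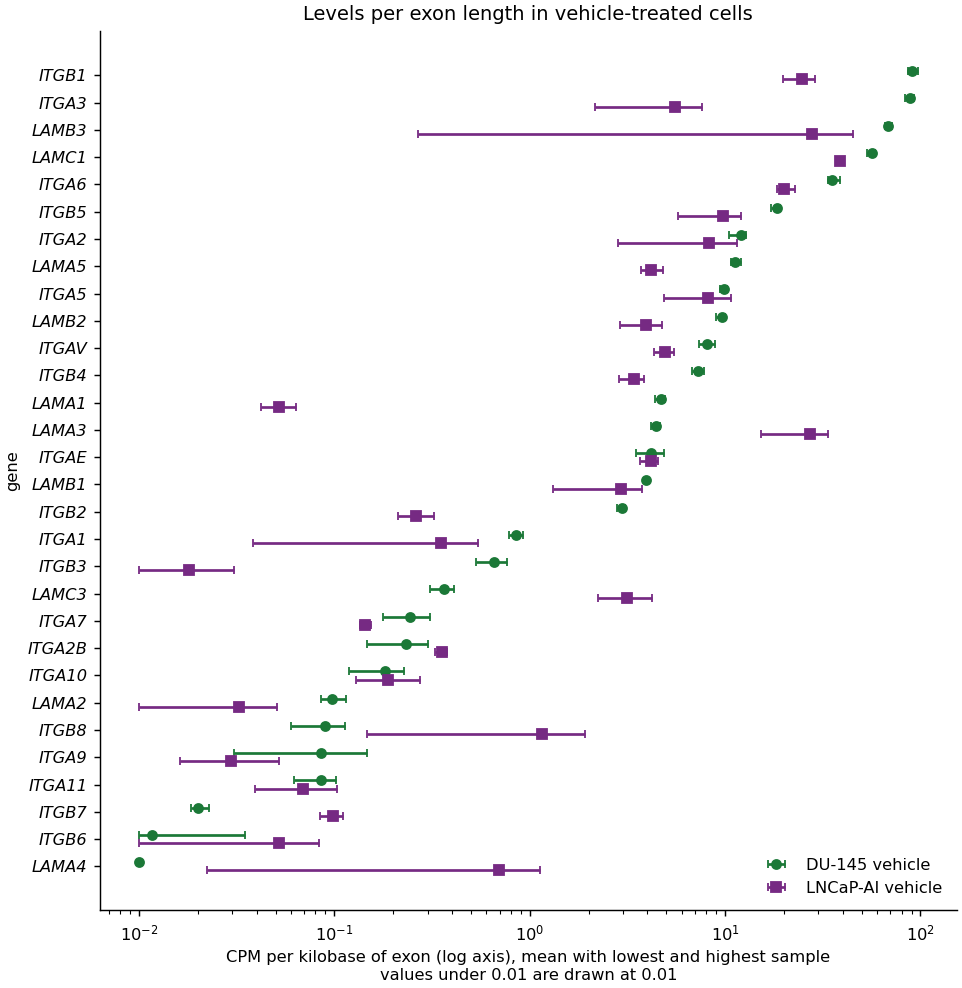
Mean level of each subunit gene in vehicle-treated DU-145 (circles) and LNCaP-AI (squares) cells in CPM per kilobase of exon on a log axis, with bars from the lowest to the highest of 3 samples, for the 30 genes with a mean of at least 0.05 in either line. ITGA3, LAMA1 and ITGB2 lie far higher in DU-145, LAMA3, LAMC3 and ITGB8 far higher in LNCaP-AI, and LAMB3 spreads widest among the LNCaP-AI samples.

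In DU-145 cells treated with DOX, most of the expressed subunits changed, with the integrin chains mostly rising and the laminin chains moving both ways. Over all 13644 genes tested, 26.3% were higher and 25.3% were lower with DOX. Of the 24 members tested, 13 were higher, 6 were lower and 5 did not pass, and the median log2 fold change was 0.28 against 0.00 over all genes. Of the alpha chains 6 of 10 rose and 1 fell, of the beta chains 4 of 5 rose and 1 fell, and of the laminin chains 3 of 9 rose and 4 fell. The same 13 and 6 genes had DOX samples wholly above or wholly below the vehicle samples, which held for 29.6% and 27.7% of all genes. In the values that follow, CPM is scaled within the line.

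ITGA2, the alpha chain of a collagen and laminin receptor, showed the widest change. It stood at 94.5, 77.7 and 96.2 CPM with vehicle and at 608, 535 and 502 with DOX. Every DOX sample was several times above every vehicle sample, and the log2 fold change of 2.61 ± 0.09 (adjusted p = 1.44e-13), a 6.12-fold rise, was the 18th highest of all 13644 genes. Per kilobase of exon ITGA2 went from the seventh to the fourth place among the members, at 73.4 ± 7.38 with DOX, where it overlapped LAMC1. ITGA1, its neighbour on chromosome 5 and also a collagen-binding chain, lies 30130 bases away with 0 coding genes between them. It was at 16.1, 13.6 and 14.8 CPM with vehicle and 22.3, 17.5 and 18.2 with DOX, a log2 fold change of 0.37 ± 0.11 (adjusted p = 0.0105). ITGA1 shares 499 exon bases on its strand with PELO, which had 588 to 1437 counts, so reads there cannot be told apart.

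ITGA5, the fibronectin receptor chain, went from 70.9, 69.8 and 66.4 CPM with vehicle to 120, 118 and 107 with DOX, without overlap and with a log2 fold change of 0.73 ± 0.07 (adjusted p = 8.52e-08). The laminin receptor chains ITGA3 and ITGA6 rose less, each by a log2 fold change of 0.28. ITGA3 was at 852, 820 and 773 CPM with vehicle and 1020, 1016 and 932 with DOX, and ITGA6 at 242, 211 and 216 against 296, 260 and 257. ITGAE, the alpha chain of an E-cadherin receptor, also passed at 0.28 ± 0.10. It shares 427 exon bases on the opposite strand with HASPIN, which had 206 to 886 counts. ITGAV, the shared chain of the RGD-binding receptors, was the single alpha chain that fell, from 146, 135 and 163 CPM to 134, 124 and 123, a log2 fold change of -0.22 ± 0.08 (adjusted p = 0.021) with the lowest vehicle sample and the highest DOX sample nearly touching. ITGA7 (-0.25 ± 0.28), ITGA10 (0.39 ± 0.38) and ITGA2B (-0.72 ± 0.39), all below 3 CPM in every sample, did not pass.

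ITGB1, the most common beta chain, stood at 1317, 1187 and 1208 CPM with vehicle and 1852, 1672 and 1647 with DOX. It was higher in all DOX samples, by a log2 fold change of 0.48 ± 0.08 (adjusted p = 5.98e-05). ITGB2, the leukocyte beta chain, went from 20.9, 21.0 and 19.3 CPM to 40.3, 42.1 and 39.0, with a log2 fold change of 0.99 ± 0.08 (adjusted p = 1.53e-08), while its leukocyte partner chains ITGAL, ITGAM and ITGAX had at most 3 counts in any DU-145 sample. An antisense gene, ITGB2-AS1, shares 303 exon bases with it and had 0 to 46 counts. ITGB4, the hemidesmosome chain, rose from 49.3, 45.9 and 43.4 CPM to 56.1, 62.4 and 55.1 (log2 fold change 0.33 ± 0.08), and ITGB5, a vitronectin receptor chain, from 115, 117 and 107 to 165, 157 and 150 (0.48 ± 0.07). ITGB3, which also pairs with ITGAV in a vitronectin receptor, moved the opposite way, from 4.29, 3.43 and 4.94 CPM to 1.70, 2.07 and 1.94. Its log2 fold change was -1.15 ± 0.22 (adjusted p = 0.000279), and its counts were 36 to 62 with vehicle and 19 to 28 with DOX. ITGB8, ITGA11 and ITGA9 did not reach the count minimum: ITGB8 had 21, 9 and 17 counts with vehicle and 1, 5 and 3 with DOX, and ITGA11 had 12, 11 and 8 against 3, 4 and 1. ITGA9 had 8, 12 and 3 counts with vehicle and 0, 3 and 0 with DOX. Without the minimum these 3 genes passed as lower (adjusted p = 3.28e-05, 0.00601 and 0.00273), which gave 9 members lower in place of 6, with 12.4% of 28037 genes lower.

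Of the laminin chains, the tested chains of the epithelial anchoring laminin rose, and 4 of the other 7 fell. LAMB3 stood at 309, 299 and 290 CPM with vehicle and 678, 662 and 600 with DOX. It was the highest of all members per kilobase of exon with DOX, at 147 ± 10.0, above ITGB1 at 125 ± 8.12, and its log2 fold change was 1.11 ± 0.07 (adjusted p = 3.84e-10). LAMA3 was at 56.5, 63.5 and 61.7 CPM against 79.3, 88.9 and 86.1, a log2 fold change of 0.49 ± 0.07 (adjusted p = 2.15e-05). LAMC1, the gamma chain of most laminins, rose from 462, 454 and 427 CPM to 576, 501 and 498, a log2 fold change of 0.23 ± 0.08 (adjusted p = 0.0155).

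The beta chains LAMB1 and LAMB2 both fell. LAMB1 was at 67.3, 69.7 and 69.2 CPM with vehicle and 48.2, 48.0 and 46.3 with DOX, a log2 fold change of -0.53 ± 0.07 (adjusted p = 3.81e-06), and LAMB2, a beta chain of nerve, muscle and kidney basement membranes, was at 57.3, 63.5 and 65.3 against 35.5, 41.2 and 38.3 (-0.69 ± 0.08, adjusted p = 9.07e-07). LAMA1 went from 72.9, 71.9 and 65.8 CPM to 49.3, 45.6 and 50.2 (-0.54 ± 0.08). LAMC3 fell from 3.14, 3.43 and 2.63 CPM to 1.79, 1.33 and 1.52 (-0.99 ± 0.25). In none of these 4 did any DOX sample reach a vehicle sample. LAMA5 (-0.16 ± 0.08, adjusted p = 0.107) and LAMA2 (0.11 ± 0.24) did not pass, and LAMA4 had at most 1 count in any DU-145 sample. LAMB1 and LAMA5 share 300 and 244 exon bases on the opposite strand with DLD and ADRM1, and the strand setting of the count is not given in the sources used here.

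The calls of small size were the least firm. ITGAE lost its call without DU-145 vehicle 1, vehicle 3, DOX 1 or DOX 2 (adjusted p from 0.0525 to 0.276), in DESeq2 (0.0637) and with upper-quartile factors (0.0552). Calls were also lost by ITGAV without vehicle 3, DOX 2 or DOX 3 (0.087 to 0.0891), LAMC1 without vehicle 3 or DOX 1 (0.0844 and 0.0801) and ITGA1 without DOX 1 (0.0755), and LAMA5 passed as lower without DOX 2 (0.0195) and with the replicate block (0.0482). When all 12 samples shared 1 estimate of the spread, which takes in the divided LNCaP-AI samples, 3 members passed as higher in place of 13, namely ITGA2, ITGB1 and ITGB2, with 12.1% of all genes higher and 12.2% lower in place of 26.3% and 25.3%. ITGAV, ITGB3 and LAMB1 were no longer called lower there (adjusted p = 0.196, 0.165 and 0.501). The fold changes hardly moved, with LAMB3 at 1.10 (adjusted p = 0.678).

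**Figure D2:**
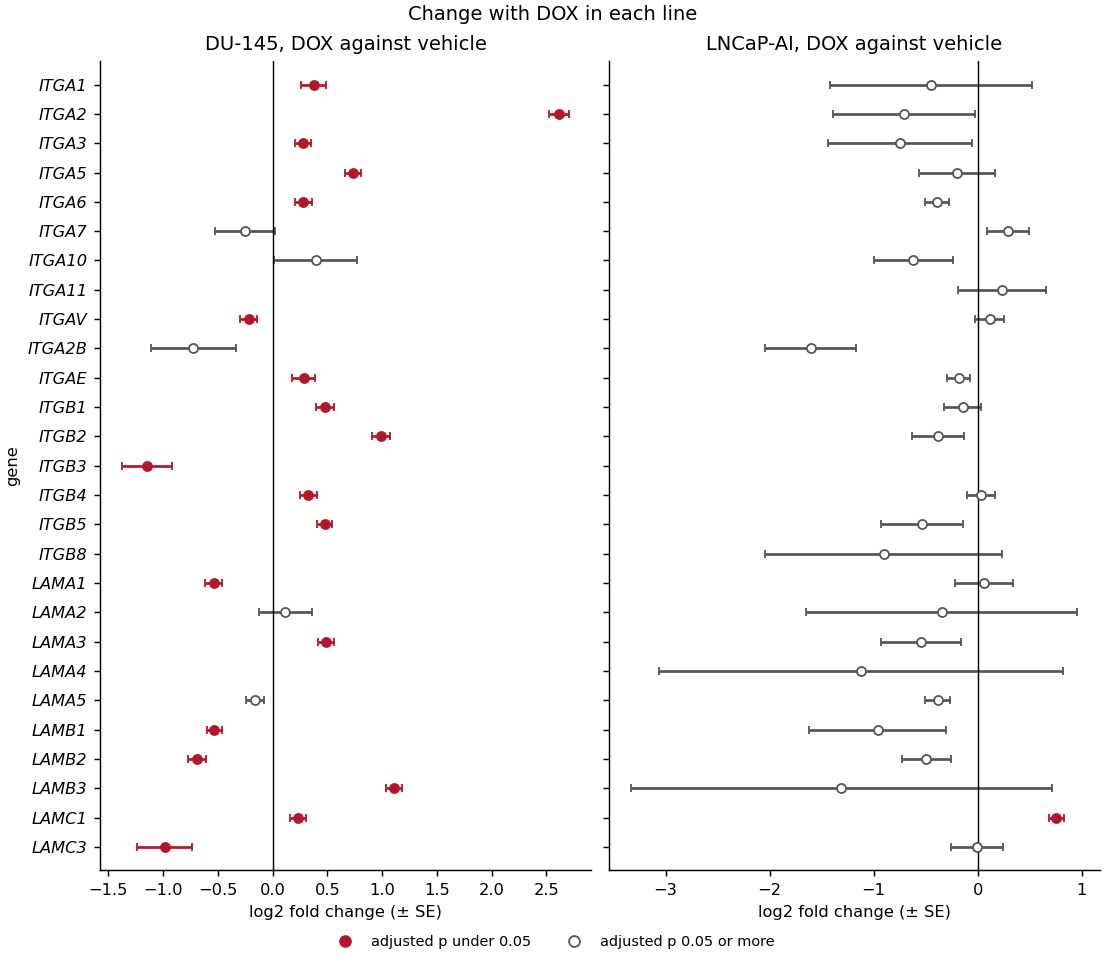
Log2 fold change with DOX against vehicle (x axis, bars are ± 1 SE) for each of the 27 subunit genes tested in DU-145 (left) or LNCaP-AI (right), with 3 samples a group and different x axis ranges in the panels. Filled red points had an adjusted p under 0.05, which holds for 19 genes in DU-145 and for LAMC1 in LNCaP-AI, where the error bars of LAMB3, LAMA4, LAMA2 and ITGB8 are widest.

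Promoter sequences were looked up for the members that moved together in DU-145. The RefSeq table (GRCh38.p14) held 25 of the 35 symbols, and 35116 promoters in all were searched on both strands over the 250 bases before the transcription start for the GC box GGGCGG, the AP-1 site TGANTCA and the E-box CACGTG. Of all promoters, 42.6% held a GC box, 6.57% an AP-1 site and 6.34% an E-box. The stretches printed are those of ITGA2, LAMA3 and LAMB3, which rose in DU-145, and of LAMC1, which rose in both lines, with every match to a motif in capitals. They lie at chr5:52989102-52989351 on the plus strand, chr18:23872770-23873019 on the plus strand, chr1:209651375-209651624 on the minus strand (the most downstream of 3 listed starts, shown because it alone of the 3 holds an AP-1 site, each holding 1 GC box) and chr1:183023170-183023419 on the plus strand. The LAMA3 window belongs to its only listed start, which lies inside the gene. The annotated gene opens upstream, at chr18:23689453.
ITGA2: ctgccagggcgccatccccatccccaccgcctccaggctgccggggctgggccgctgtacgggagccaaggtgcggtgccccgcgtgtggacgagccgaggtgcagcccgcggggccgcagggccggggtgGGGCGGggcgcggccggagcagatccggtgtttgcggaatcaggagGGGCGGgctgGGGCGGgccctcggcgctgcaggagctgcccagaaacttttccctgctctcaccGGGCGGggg
LAMA3: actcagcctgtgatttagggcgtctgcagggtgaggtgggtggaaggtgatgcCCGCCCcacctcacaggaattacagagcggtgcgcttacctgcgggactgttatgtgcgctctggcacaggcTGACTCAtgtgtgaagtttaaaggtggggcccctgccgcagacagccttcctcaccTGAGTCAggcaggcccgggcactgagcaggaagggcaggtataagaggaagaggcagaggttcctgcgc
LAMB3: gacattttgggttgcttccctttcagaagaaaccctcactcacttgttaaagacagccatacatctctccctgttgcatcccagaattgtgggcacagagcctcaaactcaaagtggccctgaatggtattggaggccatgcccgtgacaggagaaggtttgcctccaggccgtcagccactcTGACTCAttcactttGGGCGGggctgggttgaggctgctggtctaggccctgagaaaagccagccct
LAMC1: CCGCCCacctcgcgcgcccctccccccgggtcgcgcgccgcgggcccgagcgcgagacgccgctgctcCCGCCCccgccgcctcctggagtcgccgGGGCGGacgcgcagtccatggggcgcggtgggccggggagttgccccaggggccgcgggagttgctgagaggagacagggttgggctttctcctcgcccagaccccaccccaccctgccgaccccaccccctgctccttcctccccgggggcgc
The LAMA3 window held 2 AP-1 sites and 1 GC box and the LAMB3 window 1 of each, the AP-1 sites being TGACTCA and TGAGTCA. ITGA2 held 4 GC boxes, LAMC1 held 3, and neither held an AP-1 site. Among the chains that fell, the LAMB1 window held 4 GC boxes and that of LAMB2 held 1, with no AP-1 site or E-box in either. Over the first listed start of the 25 members, 13 held a GC box, 1 an AP-1 site and 1 an E-box, and the LAMB3 window was chosen after the matches were seen. These matches describe the sequence alone.

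The partners of the subunits were counted over lists of related genes. Of 27 tested genes of the focal adhesion machinery, which ties integrins to actin, 10 rose and 8 fell with DOX in DU-145, with a median log2 fold change of 0.10. The widest changes were those of the tensins, adaptors that bind the integrin tail: TNS3 (-1.53 ± 0.08) and TNS2 (-1.02 ± 0.18) fell and TNS4 (1.26 ± 0.14) rose. Of 19 tested integrin ligands and basement membrane partners 5 rose and 7 fell, with NID2 (1.52 ± 0.18) up and its paralog NID1 (-1.06 ± 0.11) and NPNT, a ligand in basement membranes (-1.16 ± 0.21), down. The nidogens, which bridge laminin and collagen networks, thus moved in opposite directions. Of 13 tested hemidesmosome, tetraspanin and other laminin receptor genes 6 rose and 2 fell. PLEC, which ties the ITGB4 chain to keratin (0.57 ± 0.08), and the tetraspanin CD9 (0.55 ± 0.07) rose, and the syndecan SDC2 (-0.90 ± 0.18) fell. These counts stand beside 26.3% higher and 25.3% lower over all genes.

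In LNCaP-AI cells 1 of the members changed with DOX by the test, and most of the rest varied with the division of the samples. Over all 16030 genes tested, 7.22% were higher and 5.52% were lower with DOX. Of the 26 members tested, LAMC1 was higher, 0 were lower and 25 did not pass in edgeR's quasi-likelihood test, with a median log2 fold change of -0.39 against -0.05 over all genes. At an unadjusted p under 0.05 in that test, 1 member was higher and 3 were lower, beside 5003 of the 16030 genes in either direction. DESeq2 called 1 higher and 3 lower at an adjusted p under 0.05, beside 11.8% and 10.1% of all genes.

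LAMC1 stood at 352, 348 and 351 CPM with vehicle and 585, 623 and 569 with DOX. The vehicle samples were nearly equal and every DOX sample was above them, as for 19.8% of all genes, with a log2 fold change of 0.76 ± 0.07 (adjusted p = 0.0123). Within the 2 sets of the division the log2 fold changes, given without a test, were 0.76 and 0.74. Per kilobase of exon LAMC1 rose to 66.8 ± 3.07, first among the members in LNCaP-AI with DOX and with all samples above those of ITGB1 at 22.8 ± 3.94. Without DOX 2 or DOX 3 its adjusted p was 0.0854 and 0.0829, at log2 fold changes of 0.73 and 0.79, and 1 gene of all those tested passed as higher and 0 as lower in each case by edgeR's quasi-likelihood test, with 3204 and 3201 genes at an unadjusted p under 0.05.

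ITGA6, LAMA5 and ITGA2B were lower in every DOX sample than in every vehicle sample without passing, a pattern held by 17.6% of all genes. ITGA6 was at 134, 161 and 134 CPM with vehicle and 121, 101 and 105 with DOX (log2 fold change -0.39 ± 0.12, adjusted p = 0.0773), with -0.38 and -0.28 within the sets. LAMA5, the alpha chain of most adult epithelial basement membranes, was at 57.5, 60.5 and 72.8 CPM against 52.8, 47.8 and 45.7 (-0.38 ± 0.12, adjusted p = 0.0879), with -0.30 and -0.34 within the sets. ITGA2B, the platelet chain, had 42, 38 and 62 counts against 7, 14 and 17 (-1.61 ± 0.43, adjusted p = 0.0618). These 3 genes passed the test as lower in DESeq2, at adjusted p of 0.0144, 0.0352 and 0.0233. With the set as a covariate, 7 members were lower: ITGA2B (-1.77), LAMB1 (-0.54), ITGA6 (-0.33), LAMA5 (-0.32), LAMB2 (-0.30), ITGA3 (-0.25) and ITGB5 (-0.21). In that fit 20.3% of all genes were lower, and in DESeq2 10.1%. Without DOX 1 the members called lower were ITGA6, ITGA2B and LAMB1, at adjusted p of 0.0488, 0.0172 and 0.0354, with 10.7% of all genes lower.

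The division touched most of the subunits. Of the 26 members tested, 13 were higher in all 3 of vehicle 2, vehicle 3 and DOX 1 than in vehicle 1, DOX 2 and DOX 3, against 20.4% of all genes, and 2, ITGAV and LAMC3, were lower in all 3, against 14.8%. These samples were grouped by the expression data themselves, so the counts are a description. LAMB3 stood at 1.36, 185 and 223 CPM with vehicle and 160, 1.68 and 2.48 with DOX. Its mean was 103 times higher in the second set, within which DOX and vehicle samples were of similar level. LAMA4, a chain of vessel and muscle laminins, stood at 0.291, 11.99 and 14.3 CPM against 11.98, 0.06 and 0.0591 (93.3 times), and ITGB8 at 2.43, 30.8 and 22.7 against 23.7, 3.54 and 2.54 (9.07 times). The ratios of the others were LAMA2 (10.6), ITGA1 (4.85), ITGA3 (3.71), ITGA2 (3.65), LAMB1 (3.59), ITGB5 (2.13), LAMA3 (2.11), ITGA5 (1.86), LAMB2 (1.61) and ITGB1 (1.34). LAMA3 was at 241, 515 and 506 CPM with vehicle and 423, 217 and 226 with DOX, and ITGA2 at 24.4, 96.5 and 87.1 against 79.4, 24.5 and 23.1. The remaining tested members, ITGA6, ITGA7, ITGA10, ITGA11, ITGA2B, ITGAE, ITGB2, ITGB4, LAMA1, LAMA5 and LAMC1, overlapped between the sets. Within the sets, the log2 fold changes of ITGA2 with DOX were -0.04 and -0.21, those of LAMA3 -0.12 and -0.27 and those of ITGB1 -0.00 and -0.01. PF4 and PECAM1 also divided the samples in this way, as given above, and their part in these values was not tested.

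**Figure D3:**
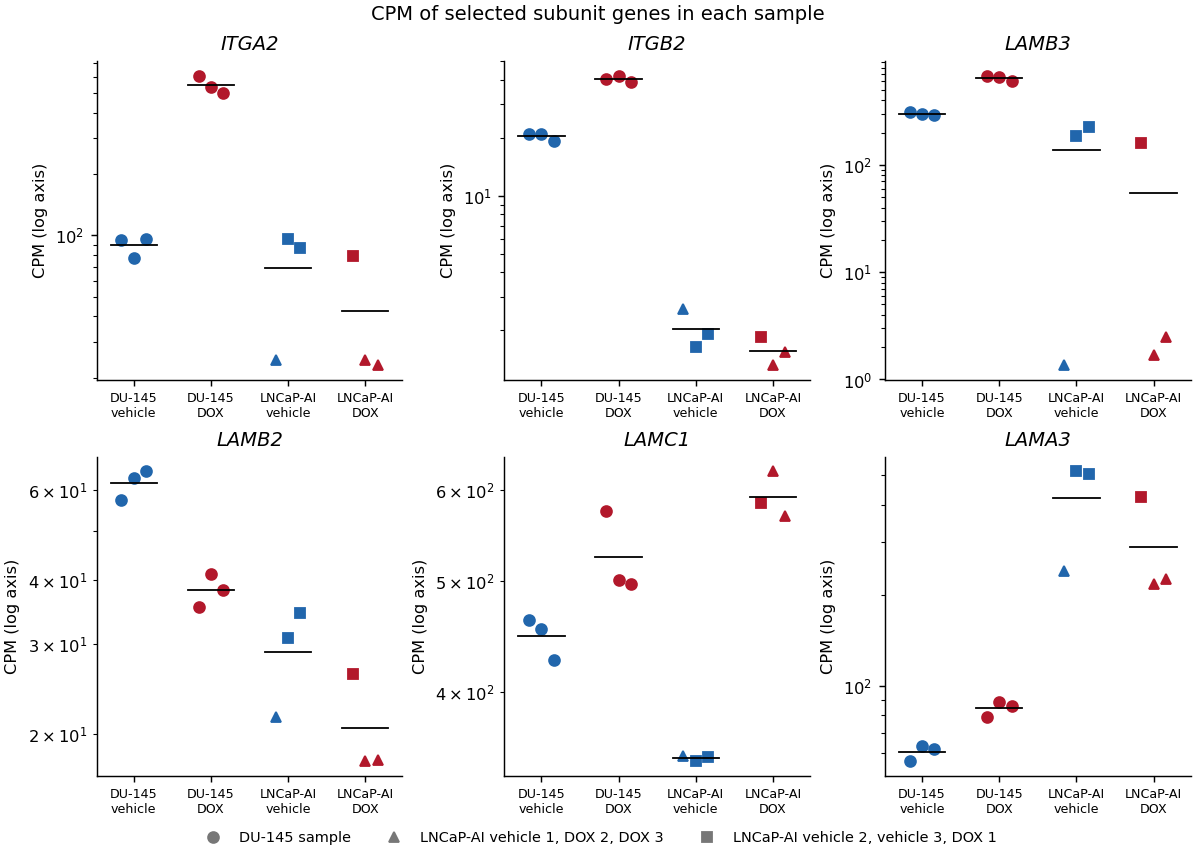
CPM of 6 subunit genes in each sample on log axes that differ between panels, with vehicle in blue, DOX in red and the group mean as a line; CPM was scaled within each line. Triangles are LNCaP-AI vehicle 1, DOX 2 and DOX 3 and squares are vehicle 2, vehicle 3 and DOX 1, which separate for ITGA2, LAMB3, LAMB2 and LAMA3 but not for LAMC1, where all 3 DOX samples lie above the vehicle samples.

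The partner lists in LNCaP-AI gave few calls. Of 28 tested focal adhesion genes 1 rose and 1 fell: LPXN, a paxillin relative (2.68 ± 0.18), and LIMS1, an adaptor of integrin-linked kinase (-0.58 ± 0.12). Of 20 tested ligands and basement membrane partners, COL4A5 rose (0.93 ± 0.22) and FBLN1 fell (-2.70 ± 0.38). Of the 14 hemidesmosome, tetraspanin and other laminin receptor genes 0 passed in edgeR's quasi-likelihood test, 2 were higher at an unadjusted p under 0.05, and 2 were higher in DESeq2. Over all genes 7.22% were higher and 5.52% lower in edgeR's test, and 11.8% were higher in DESeq2.

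The DOX effects of the lines were compared directly by an interaction term over all 12 samples, with 16800 genes tested, of which 5.43% had a higher effect in LNCaP-AI and 3.76% a lower effect. Of the 27 members tested, 1 was higher, 3 were lower and 23 did not pass. The effect on ITGA2 was lower in LNCaP-AI than in DU-145, with a log2 difference of -3.30 ± 0.76 (adjusted p = 0.0241), as were those on ITGB2 (-1.33 ± 0.22, adjusted p = 0.00559) and ITGA6 (-0.64 ± 0.15, adjusted p = 0.0279). ITGB2 was at 2.57, 1.65 and 1.91 CPM with vehicle and 1.84, 1.32 and 1.54 with DOX in LNCaP-AI, where its own change did not pass (-0.38 ± 0.25). The effect on LAMC1 was higher in LNCaP-AI by 0.56 ± 0.10 (adjusted p = 0.00939), the gene having risen in both lines. For LAMB3, which rose in DU-145, the difference of -2.40 ± 2.15 did not pass (adjusted p = 0.533). With the set of the division as a covariate, LAMB3 passed as lower (-1.32, adjusted p = 6.92e-07), beside 12.2% of all genes lower. That covariate was drawn from these same data. Without LNCaP-AI DOX 1, LAMB3 also passed as lower (-7.12, adjusted p = 0.0185), beside 12.5% of all genes. ITGA2 lost its call when any of 9 single samples was left out, at adjusted p from 0.0506 to 0.0612, and kept it without DU-145 DOX 3, LNCaP-AI vehicle 1 or LNCaP-AI DOX 1. ITGA6 lost its call in 7 cases, without DU-145 vehicle 2, vehicle 3, DOX 1 or DOX 2 or LNCaP-AI vehicle 2, DOX 2 or DOX 3, at 0.0511 to 0.0775, and ITGB2 and LAMC1 passed whichever single sample was left out. In DESeq2 ITGB1 also passed as lower (-0.57, adjusted p = 0.027).

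The other subunits were at or near the limit of detection. ITGA4, ITGA8, ITGA9, ITGAL, ITGAM, ITGAX, ITGB6 and ITGB7 were tested in neither DOX comparison and had at most 13 counts in any sample. Among these, ITGB7 had 11, 7 and 13 counts with vehicle and 2, 4 and 4 with DOX in LNCaP-AI, and ITGB6, the epithelial partner of ITGAV, had 1, 9 and 11 against 9, 2 and 4. ITGA4 and ITGA8 had at most 3 counts and 1 count in any sample. ITGB7 shares 1881 exon bases on the opposite strand with ZNF740, which had 334 to 1794 counts. In LNCaP-AI, ITGA7 (0.29 ± 0.20), ITGA10 (-0.62 ± 0.38), ITGA11 (0.23 ± 0.42) and LAMA1 (0.06 ± 0.28) stayed below 3 CPM and did not pass, and ITGB4 (0.03 ± 0.13), ITGAV (0.12 ± 0.14), ITGAE (-0.18 ± 0.11) and LAMC3 (-0.00 ± 0.25) did not pass at higher levels.

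**Figure D4:**
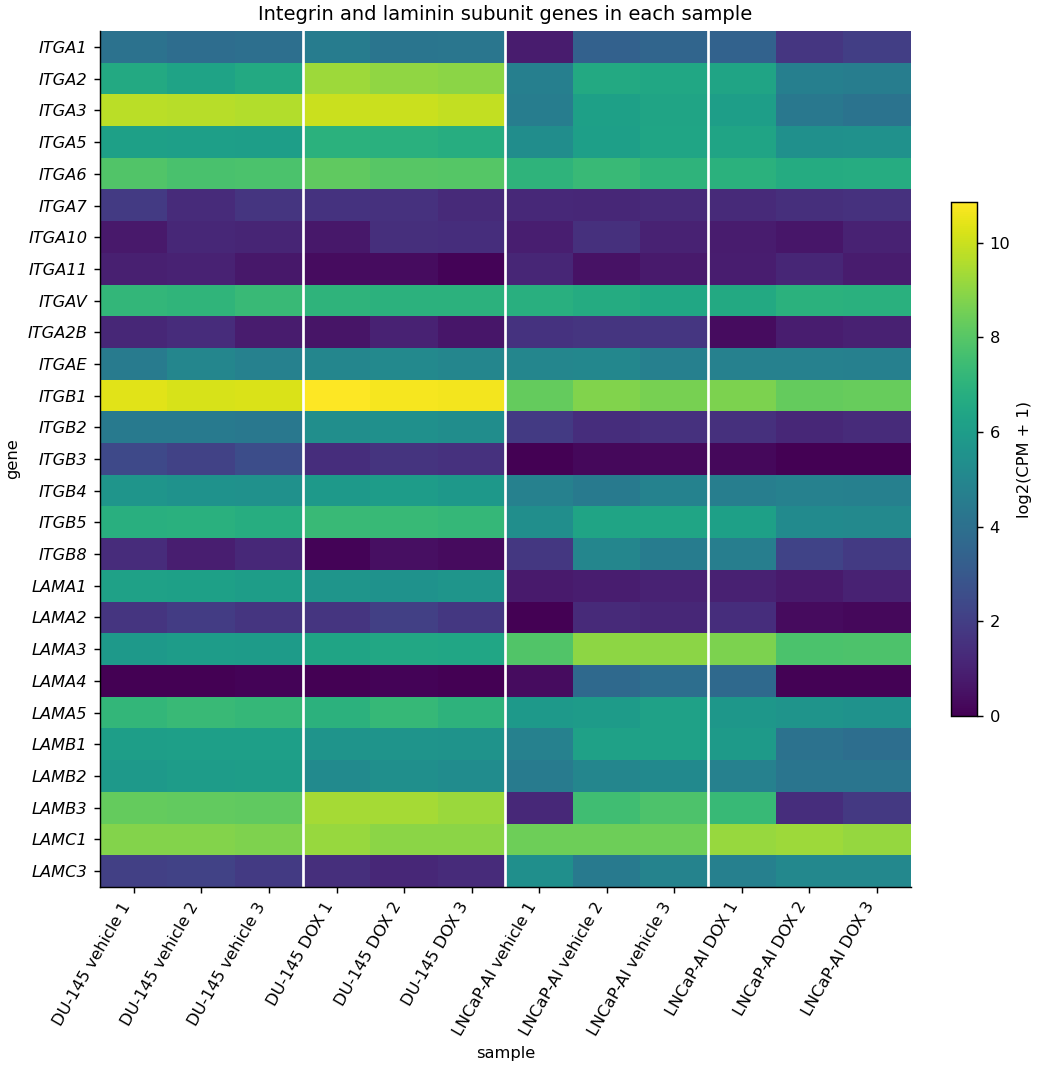
Level of the 27 subunit genes tested in either line, as log2(CPM + 1) in each of the 12 samples, with CPM scaled within each line and white lines between the groups. ITGA2 and LAMB3 brighten in the DU-145 DOX samples, LAMC1 brightens in the LNCaP-AI DOX samples, and LAMB3, LAMA4 and ITGB8 are dark in LNCaP-AI vehicle 1, DOX 2 and DOX 3.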

How the data were processed

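The data are RNA-seq counts of 12 samples. Per the labels and the study's methods, libraries were made with TruSeq Stranded mRNA, base calls with CASAVA 1.8.2 and alignment to GRCh38 with STAR 2.7.0, and the authors deposited raw counts per Ensembl gene. The counting tool and its strand setting are not given in the sources used here, and the processing notes also name DESeq2 1.24.0. Symbols were matched for 56993 of 58037 identifiers, and exon lengths and overlaps came from GENCODE annotation of GRCh38. A gene was tested when 3 or more samples of a fit had 10 or more counts each, with edgeR 4.0.16 (TMM scaling, quasi-likelihood test, Benjamini-Hochberg adjusted p under 0.05) in R 4.3.3, after a check on simulated data. SE is the log2 fold change over the square root of the F statistic. Alternatives were DESeq2 1.42.0, other scalings and filters, a replicate block, all 12 samples in 1 fit, the principal component side as covariate and leaving out each sample. Every member is named. From each list of partners, its counts and the 3 called genes with the widest change in each line are given. Members and lists were chosen with earlier results of these data known, and the LNCaP-AI division was too. Depth was 10423437 to 26961777 counts per sample, and p-values measure the spread between cultures of 1 population. Replicates differed beyond counting noise in every pair (chi-square over its degrees of freedom at least 2.38). 2 cell type markers of the lists are not reported here.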

Additional observations from a re-analysis of the deposited data

Results flagged for a closer look

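The change with DOX differed between the lines for 4 subunit genes, by the interaction term in the fit of all 12 samples. LAMC1 had a log2 fold change higher in LNCaP-AI than in DU-145 by 0.56, with effects of 0.76 and 0.23. For ITGA2 the difference was -3.30, with effects of -0.71 in LNCaP-AI and 2.61 in DU-145. For ITGB2 it was -1.33, with effects of -0.38 and 0.99. For ITGA6 it was -0.64, with effects of -0.39 and 0.28. In LNCaP-AI the ITGA2 values also follow the division of the samples, and within the sets of samples its changes were -0.04 and -0.21. Groups of 3 samples were too small for an outlier test within a group. The results of leaving out each sample are given below.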

How the results depend on the processing

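Of the 13 members called higher in DU-145, the fit of all 12 samples called 3, beside 12.1% of all genes higher there against 26.3%. In LNCaP-AI, the members called lower numbered 3 in DESeq2, 3 in the fit of all 12 samples and 7 with the set of the division as a covariate, against 0 as reported (10.1%, 9.98% and 20.3% of all genes, against 5.52%). Leaving out each sample gave 0 to 3 lower and 0 to 1 higher, the 3 coming without DOX 1, where 10.7% of all genes were lower. Between the lines with vehicle, 5 members in place of 3 were lower in DU-145 without a filter on counts, and 9 in place of 6 were lower with DOX in DU-145. For the difference between the DOX effects, the set covariate gave 5 higher and 10 lower, beside 12.2% of all genes in each direction against 5.43% and 3.76%. The higher ones were LAMC1, LAMC3, LAMB2, ITGA11 and ITGB8. The lower ones were ITGA2, ITGA3, ITGA5, ITGA6, ITGAE, ITGB1, ITGB2, ITGB5, LAMA3 and LAMB3. Leaving out each sample gave 1 to 4 higher and 1 to 9 lower. The 4 and 9 came without LNCaP-AI DOX 1, where 8.75% and 12.5% of all genes passed. Taken about the mean of each group, same-numbered samples correlated at -0.94, -0.81 and -0.84 in LNCaP-AI and at 0.127, -0.091 and 0.076 in DU-145. In LNCaP-AI these values follow the division, vehicle 1 correlating at 0.878 with DOX 2, and cannot show whether the numbers pair the samples. In DU-145 differently numbered samples correlated at -0.184 to 0.093, so no pairing by number was seen. With the replicate block 0 members were higher in LNCaP-AI. There 0 of 16030 genes passed in either direction by edgeR's quasi-likelihood test, and 2909 had an unadjusted p under 0.05. For the difference with the block, 0 members were higher and 1 was lower, where 30 and 22 of 16800 genes passed.

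17 log2 values changed sign, and 0 of them had passed the test as reported. In LNCaP-AI, LAMC3 gave 0.0038 in DESeq2, 0.0047 with RLE factors, 0.056 with upper-quartile factors, 0.043 with the block and 0.027 over all 12 samples, and ITGB4 gave -0.018 without a filter and -0.018 with the set covariate, which also gave ITGA1 0.36, ITGA5 0.11 and LAMA2 0.47. Leaving out each sample gave LAMC3 from -0.21 to 0.28, ITGB4 from -0.094 to 0.10, ITGA1 from -1.36 to 0.014, ITGA5 from -0.54 to 0.031, LAMA2 from -0.91 to 0.094, LAMA1 from -0.064 to 0.23 and ITGA11 from -0.039 to 0.63, and LAMA2 in DU-145 from -0.080 to 0.24. Between the lines with vehicle, ITGA10 gave 0.011 in DESeq2, 0.016 with RLE factors and 0.020 with the block, and ITGAE -0.043 with upper-quartile factors and -0.095 without a filter; leaving out each sample gave ITGA10 from -0.26 to 0.27, ITGAE from -0.11 to 0.20, ITGA5 from -0.020 to 0.50 and ITGA11 from -0.012 to 0.60. For the difference between the DOX effects, the set covariate gave LAMA2 0.38 and LAMB1 0.038, and leaving out each sample gave LAMA2 from -2.17 to 0.040, ITGB3 from -2.95 to 0.98, ITGB8 from -0.23 to 2.04 and LAMA4 from -3.39 to 1.21. The cause was not tested for any of these values. Of the 19 results called in DU-145, 222 alternative values stayed past the threshold and 25 did not, all in the same direction. The count filter left out the 8 members with at most 13 counts in any sample; without it, ITGA9 passed in DU-145, and ITGB7 and ITGAX between the lines.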
